A study of Homo sapiens with 20 samples.

Results

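The CYP3A subfamily of cytochromes P450 was followed in HepaRG cells, a human hepatoma line whose progenitors turn into hepatocyte-like and biliary-like cells in culture. Its 4 genes followed here, CYP3A4, CYP3A5, CYP3A7 and CYP3A43, are 4 of 19059 genes that carry a current symbol on the array. They were found through the RefSeq accession attached to each probe. They were read by 6 probes. CYP3A4 (NM_017460) had probe A_33_P3251342, CYP3A5 (NM_000777) had A_23_P8801 and A_33_P3249746, CYP3A7 (NM_000765) had A_23_P358917 and A_33_P3318117, and CYP3A43 (NM_022820) had A_23_P215828. Where a gene had 2 probes, the one with the higher mean over the series is called the lead probe and the other the second probe. RNA came from 20 cultures of this line, 4 in each of 5 conditions, hybridised to one-colour Agilent arrays. Progenitors were taken on day 4 after seeding (D4) and committed cells on day 15 (D15), both without DMSO. Cells were then kept until day 30 without DMSO (D30 − DMSO) or with 2% DMSO from day 15 to day 30 (D30 + DMSO), and DMSO-differentiated cells were kept for 4 more days after its removal (D34 ± DMSO). All 5 conditions shared a medium with serum, insulin and hydrocortisone, a glucocorticoid, so no condition was free of it. The cultures are 1 cell line, so the spread between them is that of repeated experiments on one genetic background.

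CYP3A enzymes are haem proteins of the endoplasmic reticulum that oxidise a large share of the drugs, steroids and bile acids handled by the liver, and they take electrons from cytochrome P450 reductase and cytochrome b5. CYP3A4 is the main adult hepatic form, CYP3A5 is a related form with overlapping substrates that is also found outside the liver, CYP3A7 is the main form of the fetal liver, and CYP3A43 is a minor form. Their transcription is driven by nuclear receptors that sense foreign compounds, chiefly PXR (NR1I2) and CAR (NR1I3), on a background of liver-enriched factors such as HNF4A and C/EBP alpha. PXR and CAR bind as partners of RXR to paired hexamers, among them an everted repeat with 6 bases between the hexamers, called ER6. The cultures hold more than one cell type, and in such bulk RNA fewer cells of a type and less RNA per cell cannot be told apart.

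The 4 genes lie together on chromosome 7 in the order CYP3A5, CYP3A7, CYP3A4 and CYP3A43. Between them are pseudogenes, the gene CYP3A7-CYP3A51P, annotated as protein-coding, and the non-coding RNA CYP3A4-AS1. The upstream sequences of all 4 are shown around the ER6 position because at least 1 probe of each of CYP3A4, CYP3A5 and CYP3A7 rose with DMSO and ER6 is a known response element of PXR. They are RefSeq sequences on GRCh38.p14, written 5′ to 3′ on the strand of the gene, with the 18 bases that line up with the ER6 of CYP3A4 in capitals. The CYP3A4 stretch (chr7:99784320-99784369, minus strand) has its capitals 169 to 152 bases before the start, that of CYP3A5 (chr7:99680076-99680125, minus strand) 113 to 96, that of CYP3A7 (chr7:99735331-99735380, minus strand) 168 to 151 and that of CYP3A43 (chr7:99827820-99827869, plus strand) 177 to 160.
CYP3A4: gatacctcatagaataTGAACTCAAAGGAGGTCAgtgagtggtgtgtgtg
CYP3A5: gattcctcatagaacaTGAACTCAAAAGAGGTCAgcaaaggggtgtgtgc
CYP3A7: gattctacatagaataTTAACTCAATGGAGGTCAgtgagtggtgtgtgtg
CYP3A43: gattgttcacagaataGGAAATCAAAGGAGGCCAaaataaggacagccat

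Counted from 1 at the first capital and with the base of CYP3A4 first, CYP3A5 differed by G11A, which lies between the hexamers. CYP3A7 differed by G2T, inside the TGAACT hexamer, and by A10T. CYP3A43 differed by T1G and C5A in the TGAACT hexamer and by T16C in the AGGTCA hexamer. Of 34943 upstream windows of 250 bases, searched on both strands, 8.81% held TGAACT, 12.1% held AGGTCA and 0.00859% held TGAACT followed after 6 bases by AGGTCA, which is ER6 and overlaps both hexamers by construction. Those 3 windows belonged to CYP3A4, CYP3A5 and ITGB1BP2. CYP3A7 kept AGGTCA without TGAACT, and CYP3A43 held neither word. TATAAA, found in 10.8% of all windows, was present in CYP3A4 and CYP3A7, and CCAAT, found in 32.0%, was present in CYP3A5 and CYP3A43. Over the overlapping part of the windows CYP3A7 was 94.4% identical to CYP3A4, CYP3A5 75.5% and CYP3A43 66.8%. These matches are descriptions of the letters, and binding was not measured on the arrays.

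Levels are given as log2 of the processed signal over the 75th percentile of the same array, so that 0 is the signal of a probe at that percentile. Levels of different probes cannot be set against each other, because each probe has its own brightness. The 75th percentile was between 407 and 766 signal units, and 61.1% to 74.2% of probes were well above background. Arrays of one condition correlated with r between 0.955 and 0.992. The arrays lay on 4 slides read in 2 scan sessions. D30 + DMSO was on 2 of these slides only, so values of the lead probes within slides are given beside the main ones for addition and removal. They are also given for D34 ± DMSO against D30 − DMSO and in part for D30 − DMSO against D15, but not for D15 against D4. Hepatocyte markers were on in the cultures as labelled, with 8 or 9 of the 10 listed genes well above background at D4 and all 10 from D15 on.

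CYP3A4 had its highest level in D30 + DMSO and its lowest at D4. The log2 levels of replicates 1 to 4 were -3.19, -2.85, -3.10 and -3.43 at D4. They were 0.97, 1.10, 0.51 and 1.65 at D15, and 2.83, 2.95, 2.89 and 1.89 in D30 − DMSO. With DMSO all 4 cultures were high and close together. Their levels were 6.70, 6.57, 6.88 and 6.70 in D30 + DMSO. After removal they were 0.78, 0.05, -0.05 and -0.01 in D34 ± DMSO. The order of the conditions was D30 + DMSO, D30 − DMSO, D15, D34 ± DMSO and D4, and of the neighbours in this order only D15 and D34 ± DMSO overlapped. In signal units the CYP3A4 probe ran from 67.7 on the dimmest D4 array to 53192 on the brightest D30 + DMSO array, and no spot of the subfamily was marked as saturated.

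**Figure D1:**
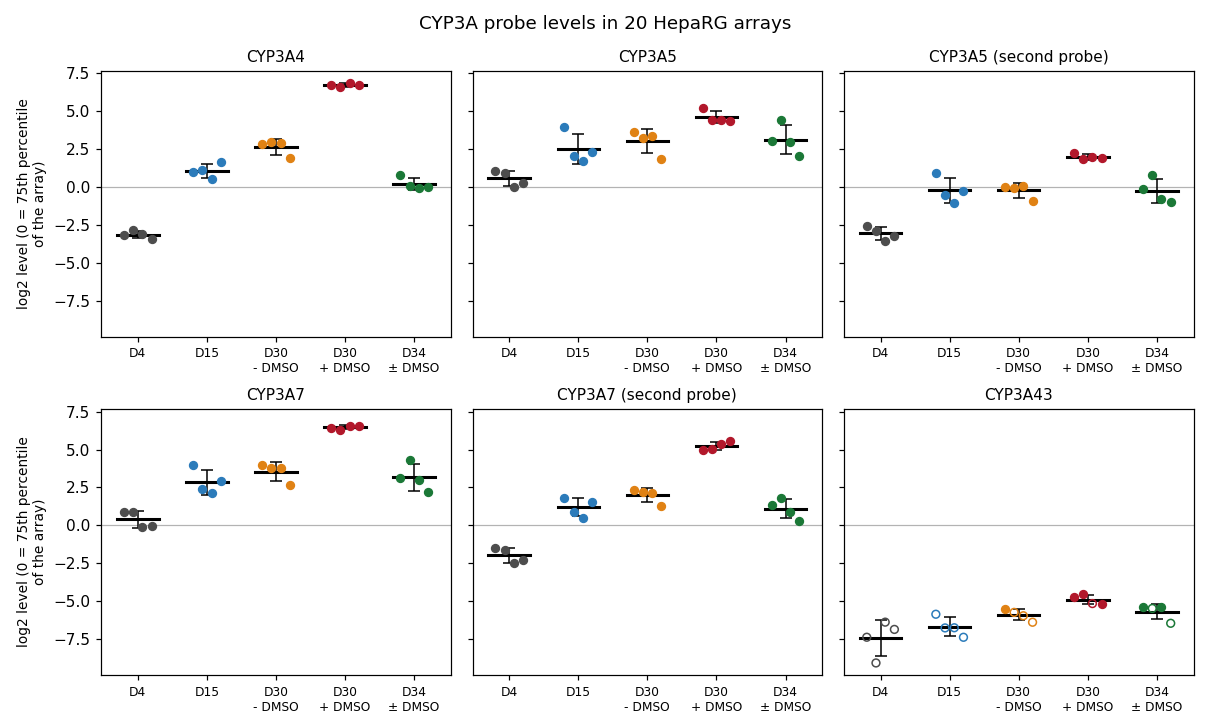
Each panel shows 1 probe, with the log2 level on the vertical axis (0 is the 75th percentile of the array) and the 5 conditions on the horizontal axis. Points are the 4 arrays of a condition, filled where the probe was well above background and open where it was not, and the bars are the mean and SD. All probes have their highest mean in D30 + DMSO and their lowest at D4, and the heights of different panels are not comparable. CYP3A43 is filled on 6 of 20 arrays.

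CYP3A7, the fetal form, also had its highest level with DMSO. Its lead probe read 0.85, 0.85, -0.13 and -0.05 at D4. It read 3.97, 2.39, 2.11 and 2.92 at D15, and 3.96, 3.81, 3.76 and 2.65 in D30 − DMSO. The D15 and D30 − DMSO arrays overlapped. In D30 + DMSO it read 6.44, 6.29, 6.56 and 6.57, above every other array. In D34 ± DMSO it read 3.13, 4.32, 3.01 and 2.17, a range that covered that of D30 − DMSO. The second probe had the same order of D30 + DMSO first and D4 last, with means of 5.22 and -1.97, and its D34 ± DMSO arrays ran from 0.30 to 1.80 against 1.28 to 2.30 in D30 − DMSO.

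CYP3A5 also had its highest mean with DMSO, but its cultures spread widely within D15 and D34 ± DMSO, with SDs of 1.01 and 0.97 for the lead probe. Its lead probe read 1.05, 0.96, 0.02 and 0.24 at D4. It read 3.98, 2.05, 1.72 and 2.34 at D15, and 3.64, 3.24, 3.37 and 1.88 in D30 − DMSO. The first D15 culture was thus above all D30 − DMSO cultures. In D30 + DMSO the lead probe read 5.19, 4.45, 4.45 and 4.34, and in D34 ± DMSO 3.03, 4.43, 2.99 and 2.06. The second D34 ± DMSO culture stayed within the range of the DMSO-treated cultures for this probe, while its CYP3A4 level was 0.05. The second probe ranged from -3.55 to -2.58 at D4, from -1.06 to 0.95 at D15, from -0.93 to 0.06 in D30 − DMSO, from 1.83 to 2.26 in D30 + DMSO and from -0.97 to 0.81 in D34 ± DMSO. For this probe the D30 + DMSO arrays were apart from all others.

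CYP3A43 was near the background. Its probe was well above background on none of the 4 arrays of D4 or D15, on 1 of 4 in D30 − DMSO, on 3 of 4 in D30 + DMSO and on 2 of 4 in D34 ± DMSO. Its log2 levels were -4.71, -4.56, -5.17 and -5.19 in D30 + DMSO and -5.53, -5.75, -5.98 and -6.40 in D30 − DMSO. The D30 + DMSO arrays were all above the others, but their processed signals were at most 21.9 units, the probe did not pass the filter on dim probes, which asks for 4 of 4 arrays in at least 1 condition, and it was not tested. At D15 no array was well above background and in D30 − DMSO 1 of 4 was, so no fold is given between them. Where a fold is later given as a bound, it sets the mean of the brighter condition against a limit from the dim arrays. That limit is, on each dim array, the higher of the lowest signal well above background and the probe's own signal. Of the 6 probes, the other 5 were well above background on all 20 arrays and were among the 26538 probes tested.

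From D4 to D15, without DMSO, CYP3A4 rose 18.4-fold, from a mean of -3.14 ± 0.24 (SD, n = 4) to 1.06 ± 0.47 (SD, n = 4). The log2 change was 4.20 with an SE of 0.26 and an adjusted p of 1.52e-09 (limma over all tested probes, Benjamini-Hochberg). A probe was called at an adjusted p below 0.005 and a change over 2-fold, and 4 of the 5 CYP3A probes were called, all higher, against 5.55% of all probes tested called higher and 9.19% called in either direction. With the methods' t-test 2 of the 5 were called, and the lead CYP3A7 probe and the second CYP3A5 probe were not (adjusted p = 0.0211 and 0.0110). CYP3A7 rose by 2.47 ± 0.43 (SE, limma adjusted p = 0.000264) with the lead probe and by 3.15 ± 0.34 (SE, limma adjusted p = 1.33e-06) with the second. The CYP3A5 probes differed in their call. The second probe rose by 2.85 ± 0.40 (SE, limma adjusted p = 2.59e-05), and the lead probe had a log2 change of 1.96 ± 0.51 (SE, limma adjusted p = 0.00792), short of the threshold. All 5 probes had no overlap between D15 and D4, as had 24.0% of all probes. With the slide as a block, the lead probe rose by 2.32 (limma adjusted p = 5.33e-05).

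Between D15 and D30 − DMSO the subfamily changed little in comparison. Of the 5 CYP3A probes 0 were called by limma, beside 0.00377% of all probes, which is 1 probe. The methods' t-test called 0 of the 5 and 0 of all 26538 probes. An unadjusted p below 0.05 (limma) was reached by 2 of the 5. The share of all probes at that cutoff was not taken, here or later. CYP3A4 was higher in all 4 D30 − DMSO arrays than in any D15 array, a lack of overlap seen in 2.26% of all probes, with a log2 change of 1.58 ± 0.26 (SE, limma adjusted p = 0.0260). The changes of the other 4 probes lay between 0.00 and 0.80. Within the 3 slides that held both conditions the CYP3A4 change ran from 0.81 to 1.98, and that of the CYP3A7 lead probe from -0.16 to 1.57.

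With DMSO from day 15 to day 30, compared with the same age without it, CYP3A4 rose 16.8-fold. The log2 change was 4.07 with an SE of 0.26 (limma adjusted p = 1.22e-08), from 2.64 ± 0.50 (SD, n = 4) to 6.71 ± 0.12 (SD, n = 4). Again 4 of the 5 CYP3A probes were called, all higher, against 1.66% of all probes called higher, 4.11% lower and 5.77% in either direction, and all 5 had no overlap between the 2 conditions, as had 25.2% of all probes. CYP3A7 rose by 2.92 ± 0.43 (SE, limma adjusted p = 8.28e-05) with the lead probe and by 3.24 ± 0.34 (SE, limma adjusted p = 2.42e-06) with the second. The second CYP3A5 probe rose by 2.22 ± 0.40 (SE, limma adjusted p = 0.000552). The lead CYP3A5 probe had a log2 change of 1.58 ± 0.51 (SE, limma adjusted p = 0.0373), which was 2.17 with the slide as a block (limma adjusted p = 0.000228). Replicate 4 of D30 − DMSO was the lowest of its condition for all 5 probes. Without it the CYP3A4 change was 3.82 and those of CYP3A7 were 2.63 and 3.01, all still called, and that of the CYP3A5 lead probe was 1.19 (limma adjusted p = 0.131). Within the 2 slides that held both conditions, CYP3A4 changed by 3.80 and 4.90. There the CYP3A7 lead probe changed by 2.41 and 3.91 and the CYP3A5 lead probe by 1.18 and 2.52.

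**Figure D2:**
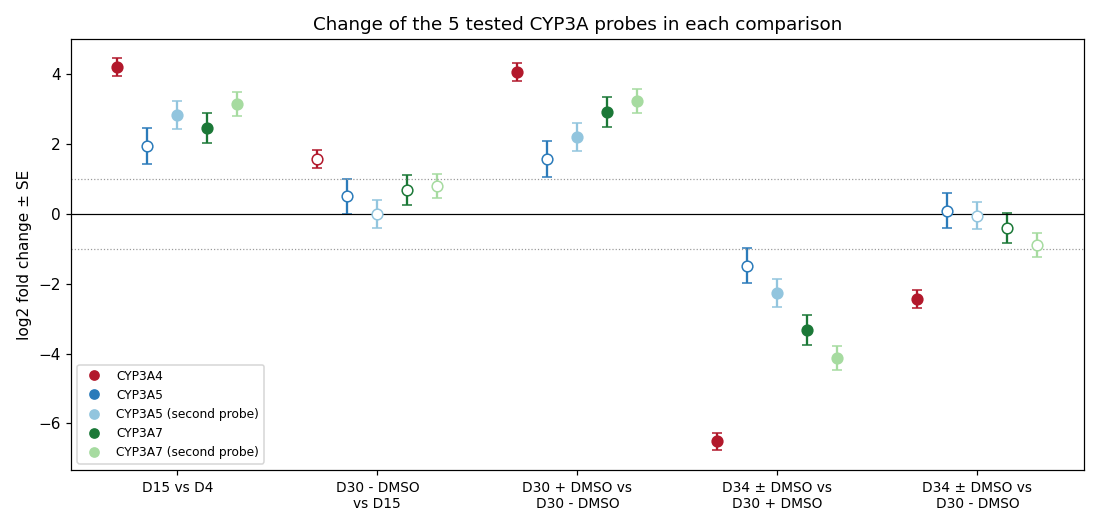
The log2 fold change (vertical axis, points with SE bars) of the 5 tested CYP3A probes is drawn for each of the 5 comparisons on the horizontal axis. Filled points passed an adjusted p below 0.005 and a 2-fold change, marked by the dotted lines, and open points did not. CYP3A4 has the largest change of the 5 probes in all comparisons, from 4.20 at D15 to -6.52 after DMSO removal.

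After DMSO removal for 4 days CYP3A4 fell 91.7-fold. The log2 change from D30 + DMSO to D34 ± DMSO was -6.52 with an SE of 0.26 (limma adjusted p = 2.09e-11), and the D34 ± DMSO mean was 0.19 ± 0.39 (SD, n = 4). In this comparison 4 of the 5 CYP3A probes were called, all lower, against 2.03% of all probes called lower, 4.89% higher and 6.92% in either direction. With the methods' t-test 2 of the 5 were called, and the lead CYP3A7 probe and the second CYP3A5 probe were not (adjusted p = 0.0073 and 0.0181). The lead CYP3A5 probe was the 1 of 5 with overlapping arrays, and 24.0% of all probes had none. CYP3A7 fell by 3.31 ± 0.43 (SE, limma adjusted p = 1.67e-05) on the log2 scale with the lead probe, and the second probe changed by -4.14 ± 0.34 (SE, limma adjusted p = 1.04e-07). The second CYP3A5 probe changed by -2.26 ± 0.40 (SE, limma adjusted p = 0.000377), and the lead probe by -1.48 ± 0.51 (SE, limma adjusted p = 0.0442), which was not called. With the slide as a block the lead probe changed by -1.85 (limma adjusted p = 0.000532). Within the 2 slides that held both conditions CYP3A4 changed by -6.80 and -6.27. There the CYP3A7 lead probe changed by -4.40 and -3.30 and the CYP3A5 lead probe by -2.33 and -1.81.

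Against cells that never received DMSO, the cultures after removal had less CYP3A4. D34 ± DMSO was 5.45-fold below D30 − DMSO, a log2 change of -2.45 with an SE of 0.26 (limma adjusted p = 5.73e-06), and every D34 ± DMSO array was below every D30 − DMSO array, while 11.8% of all probes had no overlap in either direction. It was the only 1 of the 5 CYP3A probes called, against 0.200% of all probes called lower and 1.48% in either direction. The log2 changes were -0.39 and -0.90 for the 2 CYP3A7 probes (limma adjusted p = 0.841 and 0.181) and 0.10 and -0.04 for the 2 CYP3A5 probes (limma adjusted p = 0.994 and 0.999). Within the 3 slides that held both conditions the CYP3A4 change ran from -2.835 to -1.896. That of the CYP3A7 lead probe ran from -0.89 to 0.557 and that of the CYP3A5 lead probe from -0.622 to 1.055, so their signs differed between slides. The cultures differ in age by 4 days as well as in DMSO history, and these cannot be told apart. This comparison shares its D30 − DMSO arrays with the addition comparison and its D34 ± DMSO arrays with the removal comparison. With the methods' t-test the CYP3A4 call was lost (adjusted p = 0.0218).

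Whether the lead probes of 2 genes changed by different amounts was tested on their ratio within an array, from which array scaling drops out. Probes of 1 gene also differed, with 1.96 and 2.85 for CYP3A5 from D4 to D15. For CYP3A7 they gave -3.31 and -4.14 on removal, and -0.39 and -0.90 in D34 ± DMSO against D30 − DMSO. Unequal changes of such a size cannot be told apart from differences between probes, and cross-hybridisation was not examined. There were 3 pairs and 5 comparisons, hence 15 two-sided exact permutation tests, and the smallest p that 4 arrays against 4 allow is 0.0286. Of the 15, 12 passed an adjusted p of 0.05. With DMSO the CYP3A4 to CYP3A5 ratio grew by 2.50 on the log2 scale, the CYP3A4 to CYP3A7 ratio by 1.15 and the CYP3A7 to CYP3A5 ratio by 1.35 (exact permutation p = 0.0286, adjusted p = 0.0357 for each). On removal the same ratios fell by 5.04, 3.21 and 1.83 (exact permutation p = 0.0286, adjusted p = 0.0357 for each). Among the 3 lead probes the change of CYP3A4 was thus the largest and that of CYP3A5 the smallest in both directions. The arrays of the 2 conditions did not overlap in any of the 3 ratios.

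**Figure D3:**
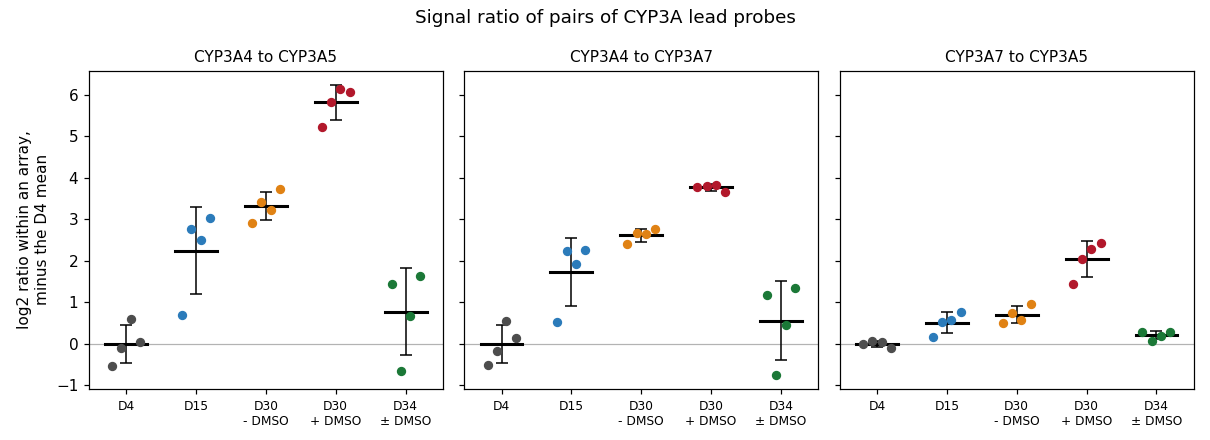
Each panel shows, on the vertical axis, the log2 ratio of 2 lead probes within an array after subtraction of the D4 mean, for the 5 conditions on the horizontal axis. Points are arrays and bars the mean and SD of 4 arrays. The CYP3A4 to CYP3A5 and CYP3A4 to CYP3A7 ratios peak in D30 + DMSO and come back in D34 ± DMSO to below D30 − DMSO, by 2.55 and 2.06.

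After removal the ratios did not return to those of D30 − DMSO. The CYP3A4 to CYP3A7 ratio was 4.17-fold lower in D34 ± DMSO than in D30 − DMSO, the CYP3A4 to CYP3A5 ratio 5.84-fold lower and the CYP3A7 to CYP3A5 ratio differed by -0.49 on the log2 scale (exact permutation p = 0.0286, adjusted p = 0.0357 for each). From D4 to D15 the CYP3A4 to CYP3A5 ratio grew by 2.25 and the CYP3A7 to CYP3A5 ratio by 0.51 (adjusted p = 0.0357, exact permutation). With the second probes in place of the lead probes, an alternative chosen after the data were seen, these changes were 1.36 and 0.30 (adjusted p = 0.0918 and 0.2, exact permutation) and did not pass. The CYP3A4 to CYP3A7 ratio changed by 1.74 from D4 to D15 (exact permutation p = 0.0571, adjusted p = 0.0612). Between D15 and D30 − DMSO only the CYP3A4 to CYP3A7 ratio passed, with growth of 0.88, and the CYP3A7 to CYP3A5 ratio changed by 0.19 (exact permutation p = 0.400).

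The regulators of CYP3A transcription were mostly called in the early step. From D4 to D15, 15 of 23 listed genes were called higher and 1 lower (69.6% against 9.19% of all probes), with a median log2 change of 1.52 against 0.03 over all probes tested. PXR (NR1I2) rose by 3.37 ± 0.26 (SE, limma adjusted p = 2.42e-08) and CAR (NR1I3) by 3.04 ± 0.40 (SE, limma adjusted p = 1.51e-05), from D4 levels that were well above background on 3 and 2 of 4 arrays. HNF4A, a master regulator of hepatocyte genes, was near background in all 4 D4 arrays and rose at least 4.07-fold (limma adjusted p = 2.12e-07). Its probe stayed dim in every condition, with means of -4.25 at D15 and -3.79 in D30 + DMSO, its highest. CEBPA rose by 2.69 on the log2 scale, the bile acid receptor NR1H4 by 3.42 and its target NR0B2, a corepressor without a DNA-binding domain, by 3.78, with 2 of 4 D4 arrays well above background for NR0B2. VDR, the vitamin D receptor, fell by 1.50. The glucocorticoid receptor NR3C1 had a log2 change of 0.15 and was not called.

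With DMSO 3 of the 23 regulators were called, or 13.0% against 5.77% of all probes. An unadjusted p below 0.05 (limma) was reached by 13, a count with no share of all probes beside it. CAR rose by 2.43 ± 0.40 (SE, limma adjusted p = 0.000276), from a mean of -1.12 ± 0.68 (SD, n = 4) to 1.31 ± 0.43 (SD, n = 4), with no overlap between the conditions. NR0B2 rose by 1.56 and VDR fell by 1.35. PXR went from -1.20 ± 0.31 (SD, n = 4) to -0.16 ± 0.23 (SD, n = 4), without overlap, a log2 change of 1.04 ± 0.26 that was not called (SE, limma adjusted p = 0.00861). The median of the list was 0.20 against 0.04 over all probes. On removal 4 of the 23 were called, or 17.4% against 6.92% of all probes, and the list median was -0.195 against -0.062. CAR fell by 2.04, NR0B2 by 2.80 and TEF, a PAR-domain clock output factor, by 1.75, while VDR rose by 1.12. The other tested CAR probe was not called on removal. PXR changed by -0.51 (limma adjusted p = 0.193). Between D34 ± DMSO and D30 − DMSO, where CYP3A4 was lower, 1 of 23 regulators was called, or 4.35% against 1.48% of all probes. It was PPARGC1A, the coactivator PGC-1 alpha, which fell by 1.17 (limma adjusted p = 0.000188). CAR had a log2 change of 0.39 and PXR of 0.53 in that comparison, neither called.

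**Figure D4:**
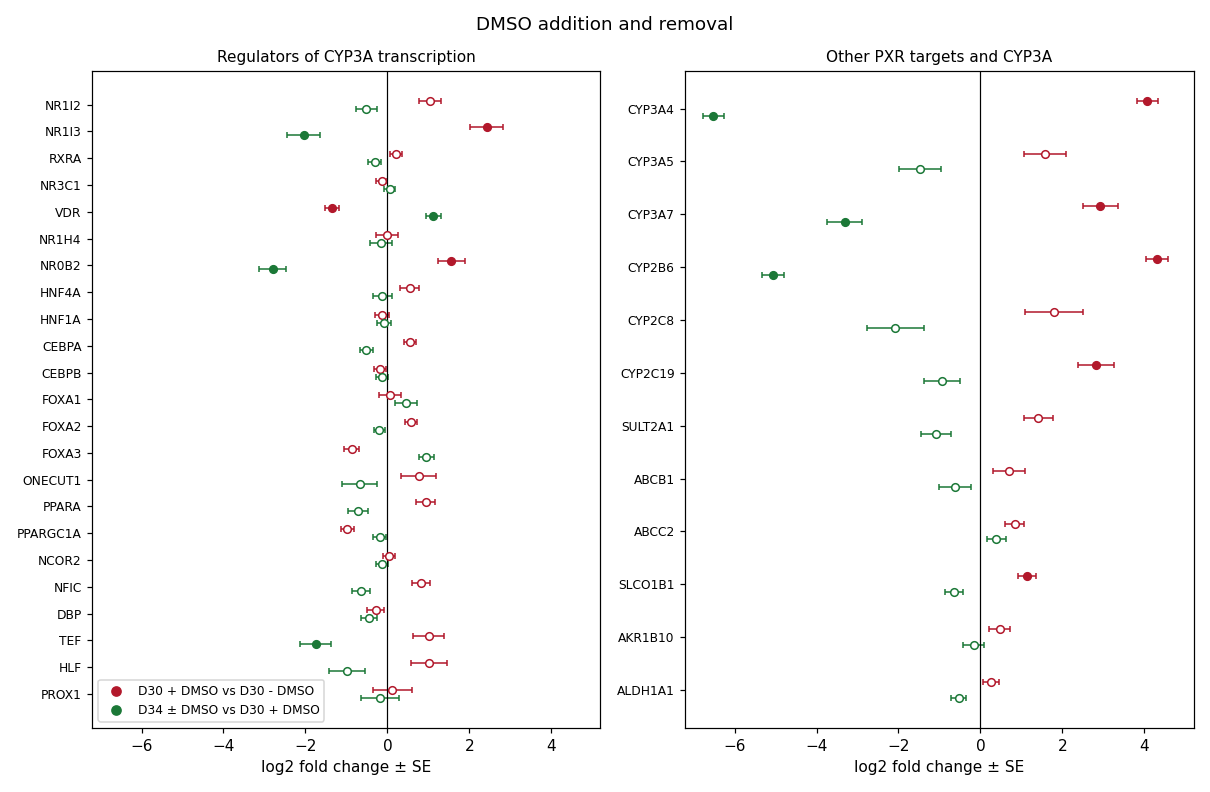
The log2 fold change with its SE (horizontal axis) is shown for DMSO addition (red) and removal (green), for 23 regulators at the left and for 3 CYP3A lead probes and 9 other PXR targets at the right (vertical axes). Filled points were called and open points were not. CYP2B6 changes by 4.32 and -5.07 on the log2 scale, next to 4.07 and -6.52 for CYP3A4, while PXR itself (NR1I2) is open in both comparisons.

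Of 12 other known PXR targets, 9 were measured, and they are enzymes and transporters of drug disposal. From D4 to D15, 7 of 9 were called higher, against 5.55% of all probes. With DMSO 3 of 9 were called, all higher, against 1.66% of all probes: CYP2B6 by 4.32 ± 0.27 (SE, limma adjusted p = 1.22e-08), CYP2C19 by 2.81 and the uptake transporter SLCO1B1 by 1.14. On removal CYP2B6 was the only 1 of the 9 that was called, or 11.1% against 6.92% of all probes. Its log2 change was -5.07 ± 0.27 (SE, limma adjusted p = 1.30e-09). CYP2C19 changed by -0.93 and was not called (limma adjusted p = 0.150). The other tested CYP2B6 probe on the array was not called in these comparisons. Against D30 − DMSO, CYP2B6 had a log2 change of -0.75 in D34 ± DMSO (limma adjusted p = 0.149), and CYP2C19 of 1.88 (limma adjusted p = 0.0150). The export pump ABCC2 was called there, higher by 1.23.

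Of 14 measured genes of electron transfer and haem supply, 1 was called from D4 to D15, with DMSO and on removal, and in each case it was ALAD, the second enzyme of haem synthesis. That is 7.14% of the list, near the 9.19%, 5.77% and 6.92% of all probes. ALAD rose by 1.02 and by 1.11 and then fell by 1.20 on the log2 scale. CYB5A, which encodes cytochrome b5, had log2 changes of 0.97, 0.76 and -0.71 in the same comparisons, each under 2-fold. ALAS1, the rate-limiting enzyme of haem synthesis, changed by 0.49 with DMSO and by -0.79 on removal and was not called. The gene of cytochrome P450 reductase was not matched and is not analysed here.

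Other genes of the fetal liver were set beside CYP3A7. Of 8 listed genes 6 were tested, and with DMSO 1 was called, the imprinted RNA H19. That is 16.7% against 5.77% of all probes. The median log2 change of the 6 with DMSO was 0.05, against 0.04 over all probes. H19 fell by 3.12 ± 0.40 (SE, limma adjusted p = 1.86e-05) with DMSO and rose by 3.27 on removal, opposite in sign to CYP3A7 in both comparisons. AFP, the fetal counterpart of albumin, had log2 changes of -0.51 and 0.76 (limma adjusted p = 0.0881 and 0.00898). LIN28B, which blocks maturation of let-7 RNAs, had log2 changes of 0.70 with DMSO (limma adjusted p = 0.00662) and -0.11 on removal, GPC3 of 0.25 and -0.28 and DLK1 of 0.10 and 0.04, none called. From D4 to D15 LIN28B fell by 1.25 and H19 by 1.66.

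Of the listed genes within or flanking the locus, 5 of 8 were tested. AZGP1, a secreted zinc-binding glycoprotein that the liver makes, was called from D4 to D15, with DMSO and on removal, with log2 changes of 3.89, 1.53 and -1.84. TRIM4 and the zinc-finger genes ZKSCAN5 and ZKSCAN1 on either side of the locus were not called in these comparisons. ZSCAN25, next to CYP3A5, changed by 0.65 with DMSO (limma adjusted p = 0.00031) and by -0.66 on removal (limma adjusted p = 0.000198), both under the 2-fold limit.

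The genes most like each member were sought by Pearson's r of log2 levels over the 20 arrays among 22220 genes, as a description. For CYP3A4 they were GNMT, glycine N-methyltransferase (r = 0.984), CYP2B6 (r = 0.982), a transcript known by its Ensembl identifier ENST00000378281 (r = 0.979), CYP2A7 (r = 0.978) and GPR160 (r = 0.973). For CYP3A7 they were OXER1 (r = 0.978), ABCC6P1 (r = 0.974), AASS (r = 0.973), AK126742 (r = 0.970) and SLC46A1 (r = 0.970). For CYP3A5 they were HSD17B3 (r = 0.977), TRPV1 (r = 0.965), N4BP2L1 (r = 0.965), FBXO24 (r = 0.962) and ABCC6P1 (r = 0.962). The lead probes of CYP3A5 and CYP3A7 correlated with r = 0.957, those of CYP3A4 and CYP3A7 with 0.950 and those of CYP3A4 and CYP3A5 with 0.848. The 5 conditions make up much of these correlations, and the points share arrays and slides.

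Markers of the cell types in the cultures were read beside these changes. With DMSO 1 of 10 hepatocyte markers was called, or 10.0% against 5.77% of all probes. It was G6PC1, the last enzyme of glucose release, which rose by 1.76, and it fell by 2.50 on removal. All 10 had a positive log2 change with DMSO, from 0.15 to 1.76 with a median of 0.50. An unadjusted p below 0.05 (limma) was reached by 5 of 10, a count with no share of all probes beside it. TF, APOA1 and TAT, which encode transferrin, an apolipoprotein and a tyrosine-degrading enzyme, had log2 changes of 1.05, 1.03 and 1.09, and albumin (ALB) of 0.28, none called. On removal the 10 ran from -2.50 to 0.50 with a median of -0.38. The summed signal of the 10 markers, in multiples of the 75th percentile, was 1702 to 1806 in D30 − DMSO, 1947 to 3178 in D30 + DMSO and 1648 to 2084 in D34 ± DMSO. The part of these changes in the CYP3A results was not tested. Of 6 tested biliary and progenitor markers 2 were called with DMSO, or 33.3% against 5.77% of all probes. SOX9 rose by 1.31 and SPP1 fell by 1.78, and on removal SOX9 fell by 2.09 and SPP1 rose by 2.22. The sum of that list was 166 to 174 in D30 − DMSO, 123 to 177 in D30 + DMSO and 136 to 202 in D34 ± DMSO, and EPCAM, CFTR and PROM1 did not pass the filter on dim probes.

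All 5 proliferation markers rose on removal, by 2.36 to 3.85 on the log2 scale. All 5 also had higher means in D34 ± DMSO than in D30 − DMSO, by 2.34 to 3.22. In that comparison 4 of the 5 markers were called higher, against 1.28% of all probes called higher and 1.48% in either direction. Their summed signal was 0.599 to 1.46 in D30 + DMSO and 7.05 to 15.6 in D34 ± DMSO, the same arrays in which CYP3A4 was low. Their part in the CYP3A4 result was not tested. Mesenchymal, endothelial and leukocyte markers were called with neither addition nor removal, beside 5.77% and 6.92% of all probes. At an unadjusted p below 0.05, limma gave 2 of 5 mesenchymal, 0 of 2 endothelial and 2 of 4 leukocyte genes for addition and 3, 1 and 0 for removal. No share of all probes stands beside these counts. PECAM1, VWF and CD3E, which define endothelial cells and T cells, did not pass the filter on dim probes.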

How the data were processed

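Total RNA of HepaRG cells was labelled with one dye and hybridised to Agilent 8x60K arrays. The authors extracted spots with Agilent Feature Extraction and deposited, for each array, processed intensity values, already background-subtracted and not scaled between arrays, with flags for background and saturation. They also deposited a log2 value matrix, scaled and centred for each probe by a rule the sources used here do not give. After an array shift of up to 0.102, 98.7% of its differences between arrays matched the scanner values within 0.01, and its array medians ran from -0.204 to 0.171. It was used as an alternative.

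From the files, spots of a probe were averaged without outlier spots, for 42405 probes. The average was divided by the 75th percentile of the array and multiplied by the median of these percentiles over the arrays. It was then set to a floor of 1 and put on the log2 scale, and the log2 of that median was subtracted. Probes entered the test (26538) if some condition had them well above background in its 4 arrays. Accessions were matched to RefSeq genes, which named 24823 probes. All 20 arrays entered one limma 3.58.1 fit (R 4.3.3) of 5 condition means. The thresholds are those of the study's methods, with limma in place of their test. Unequal change was tested with scipy's exact permutation test. The number of arrays limits the precision.

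The methods call the 4 cultures of a condition independent biological replicates, and the labels only number them. Whether replicate numbers pair arrays was not settled. Over 40 same-numbered pairs the correlation of deviations from condition means ran from -0.301 to 0.793, with a median of 0.251. Over 120 pairs with other numbers the median was -0.154. Pairs on the same slide had a median of 0.366 and pairs on other slides -0.16. Neither number nor slide was a term in the main fit, and blocks for each were alternatives. Named genes are the members, the lists of regulators, partners, targets, fetal genes, neighbours and cell markers, and for each tested member the 5 genes most like it. Members and lists were chosen with earlier results of these data known, and 1 listed gene is not reported here. Probe sequences were not used here, so cross-hybridisation between these similar genes was not examined. Alternatives were quantile normalization, normexp with an offset of 50, the authors' matrix, other filters, a floor of 10, 1 probe per gene, blocks, 2-condition fits, the methods' t-test and leaving out each array.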

Additional observations from a re-analysis of the deposited data

Results flagged for a closer look

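In each of 45 sets of 4 arrays (6 probes and 3 ratios in 5 conditions) the highest and lowest value were compared with the rest, and a value was listed when its gap to the nearest array exceeded Dixon's critical share of the range of the set. Chance flags about 1 in 20 sets, and 7 were found. The sets are not independent, because the probes correlate and the ratios are made from them, so no excess over chance can be read from this count. In D30 − DMSO, replicate 4 was far below the other arrays for CYP3A4 (log2 level 1.89, nearest 2.83), for the second CYP3A5 probe (-0.93, nearest -0.04), for the CYP3A7 lead probe (2.65, nearest 3.76) and for the second CYP3A7 probe (1.28, nearest 2.14). Its array was on slide 4, and the part of the slide was not tested. In D34 ± DMSO, replicate 1 was above the others for CYP3A4 (0.78, nearest 0.05) and replicate 4 was below them for CYP3A43 (-6.47, nearest -5.49), where the probe was not well above background. In D30 + DMSO, replicate 1 was above the others for the CYP3A5 lead probe (5.19, nearest 4.45).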

How the results depend on the processing

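Of 290 member values under alternative settings, 274 kept direction and call. The CYP3A5 lead probe gained calls with the slide as a block (2.32, 2.17 and -1.85 for D15 vs D4, addition and removal) and with the scan session as a block (2.19, 1.81 and -1.71). With the methods' t-test, which does not share the spread between probes, calls were lost for the CYP3A7 lead probe (2.47 at D15, adjusted p = 0.0211, and -3.31 on removal, adjusted p = 0.0073), the second CYP3A5 probe in the same comparisons (adjusted p = 0.011 and 0.0181) and CYP3A4 in D34 ± DMSO vs D30 − DMSO (-2.45). The second CYP3A5 probe, which hardly changed from D15 to D30 − DMSO, turned negative with quantile normalization (-0.0076), slide (-0.26) and scan session (-0.15), and turned to 0.17 with slide in D34 ± DMSO vs D30 − DMSO. Of 45 ratio values, 40 kept their call. The CYP3A4 to CYP3A5 ratio at D15 vs D4 did not pass with normexp (1.49) or the second probes (1.36), nor the CYP3A7 to CYP3A5 ratio with the second probes (0.30), while from D15 to D30 − DMSO both passed with the second probes (1.58 and 0.80). These causes were not tested.

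Numbers of called probes, in the order D15 vs D4, D30 − DMSO vs D15, addition, removal and D34 ± DMSO vs D30 − DMSO, were 2439, 1, 1532, 1836 and 393. With normexp the first 4 were 1562, 3, 738 and 967, and the share of higher calls on addition was 40.5% against 28.7%. With the methods' t-test the 5 numbers were 1226, 0, 650, 546 and 39, and the share of higher calls in the last was 97.4% against 86.5%. With only the arrays of the 2 conditions the last was 184. The single call of D30 − DMSO vs D15 became 3 with quantile normalization, 0 with probes well above background on all arrays, 6 with a floor of 10, 4 with slide, 2 with scan session and 0 with 2 conditions. Scan session moved the median of all probes on removal to -0.12 and slide to -0.11.

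With 1 array left out, the CYP3A5 lead probe at D15 vs D4 ran from 1.47 to 2.22 and was called without D30 − DMSO replicate 4 (adjusted p = 0.00469) or D34 ± DMSO replicate 2 (adjusted p = 0.00391). In D34 ± DMSO vs D30 − DMSO it ran from -0.33 to 0.45 and its second probe from -0.41 to 0.19, and the latter from -0.28 to 0.39 at D30 − DMSO vs D15. The called probes of D30 − DMSO vs D15 ran from 1 to 5, with 5 without D15 replicate 4 and 2 without D4 replicate 3, D30 + DMSO replicate 3 or 4, or D34 ± DMSO replicate 3. No other member result changed its call or direction. All 300 ratio values kept their direction. Their tests were not rerun, and a move by less than the SD is assured when 1 of 4 arrays is left out. A replicate block, which pairs arrays of one number, added the call of the CYP3A5 lead probe at D15 vs D4 (1.96, adjusted p = 0.00143), changed no other call and gave 2735, 1, 1796, 2084 and 493 called probes. At most 5 of 8 arrays of a comparison correlated best with their own number. CYP3A43 was too dim for a test.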
